A study of Arachis hypogaea with 30 samples.

Results

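The genes described here encode pathogenesis-related protein 1 (PR1) and chitinases of peanut (Arachis hypogaea). They were chosen by their KEGG orthology number in the deposited table: K13449 for PR1, K01183 and K20547 for chitinases, and K19891, K19892 and K19893 for glucan endo-1,3-beta-glucosidases (beta-1,3-glucanases). Among 82955 genes listed, 38 carried 1 of these numbers, 31 of them K01183 and 7 K13449. The other 4 numbers, which include all those of the glucanases, were carried by 0 genes, so the choice by orthology number holds no glucanase. An FPKM (the count scaled to gene length and library total) of at least 1 in at least 3 libraries was reached by 23 of the 38, which were 21 chitinases and 2 PR1 genes, and by 42311 genes in all. The term member refers to these 23 below.

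The libraries came from whole hydroponic seedlings of 2 cultivars, HY33, which the labels give as tolerant of salt, and HY9115, given as sensitive. At the 3-leaf stage the solution was exchanged for 100 mM NaCl, and seedlings were taken at 0 h (water) and after 3, 12, 24 and 48 h. Each of the 10 groups held 3 libraries of poly(A) RNA, 30 in all. Water was sampled at 0 h alone, so the effects of NaCl, of elapsed time and of the hour of the day cannot be told apart. The titles call the replicates biological, but the sources used here do not say whether they were separate plants, so the p-values rest on the spread among these libraries alone, which may be technical.

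Plants respond to microbes and to several abiotic stresses by secreting pathogenesis-related proteins, a set of small proteins and enzymes that collect outside the cell and in the vacuole. Chitinases cut chitin, the polymer of fungal walls and insect cuticles, and release fragments that plants sense through receptor kinases, while some plant chitinases also act on wall components of bacteria or take part in growth. PR1 is a secreted protein with antifungal activity whose transcript is the usual marker of salicylic acid responses in Arabidopsis. Beta-1,3-glucanases cut glucans, a further component of fungal walls, and also callose of plants.

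By their Gene Ontology terms the members fell into 4 classes. A cell wall macromolecule catabolism term was on 14 chitinases, of which 10 passed the FPKM rule. A lysozyme activity term was on 7, of which 4 passed, and 10 had neither term, of which 7 passed. Of the 7 PR1 genes 2 passed. A defence term was on 13 of the 23 members, and a chitin-binding term also on 13. The 15 genes that did not pass were at a low level in every library: 4 had no count at all, and the highest FPKM among them was 1.64, in Ah20g069100, a PR1 gene. The lowest member, the chitinase Ah20g010500, had a third-highest FPKM of 1.29, while that of Ah01g324700, the chitinase next outside, was 0.98. An FPKM of at least 1 was reached in all 30 libraries by 14 members, and 0 members passed through a single group or a single cultivar. The chitinase Ah03g232300 passed through a single time: its 6 libraries at 3 h were at 1 or more and every other library was at most 0.85. Ah06g027200, Ah16g152200 and Ah20g010500 passed through libraries of 0 h and 3 h alone, and were thus under 1 in every library from 12 h on.

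Library totals ranged from 13072324 to 18788677 counts (median 15999749), and the 42311 genes tested held 99.57% of them. Markers of all 3 seedling tissues checked were detected. The summed share of the 12 green shoot genes with a count (the RuBisCO small subunit and light-harvesting proteins) was 2.11 to 2.17% of counts in HY33 and 1.65 to 1.86% in HY9115 at 0 h, and 0.269 to 0.288% and 0.230 to 0.253% at 48 h. For the 21 root genes with a count (nitrate transporters and nicotianamine synthases) it was 0.0122 to 0.0124% and 0.0168 to 0.0204% at 0 h, and 0.00373 to 0.00397% and 0.00378 to 0.00424% at 48 h. As markers of cotyledon or seed reserve, the 33 genes with a count and a term for nutrient reservoir activity were used. Whether each encodes a seed storage protein was not checked. For these it was 0.0755 to 0.0783% and 0.0695 to 0.0718% at 0 h, and 0.0907 to 0.0927% and 0.117 to 0.120% at 48 h. Whether tissue make-up shifted, and what part that had in the results for PR1 and chitinases, was not tested. In whole seedlings fewer cells of a type and less RNA per cell cannot be told apart.

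Together the 23 members took 0.0319 ± 0.0036% of all counts in HY33 at 0 h (mean ± SD, n = 3, as for all such values) and 0.0321 ± 0.00068% in HY9115. In HY33 the share was 0.0572 ± 0.0034% at 3 h, 0.0933 ± 0.0058% at 12 h, 0.101 ± 0.0071% at 24 h and 0.433 ± 0.044% at 48 h. In HY9115 it was 0.0675 ± 0.0087%, 0.0825 ± 0.017%, 0.0883 ± 0.0076% and 0.250 ± 0.012% at the same times. The 48 h libraries lay above those of every earlier time in each cultivar, and at 48 h the lowest HY33 library (0.401%) was above the highest HY9115 library (0.263%). A few genes made up these sums. Within a library, the median share of the members' counts was 22.4% for Ah18g030400 (9.83 to 29.1% over the 30 libraries), 16.3% for Ah08g147800 (8.12 to 21.0%), 15.3% for Ah12g210300 (5.43 to 49.5%) and 6.10% for the PR1 gene Ah10g050800 (2.38 to 25.7%). Of the counts pooled over all libraries, to which the 48 h libraries gave the most, Ah12g210300 held 31.4%. These 4 together took between 37.7 and 95.3% of the members' counts in a library.

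**Figure D1:**
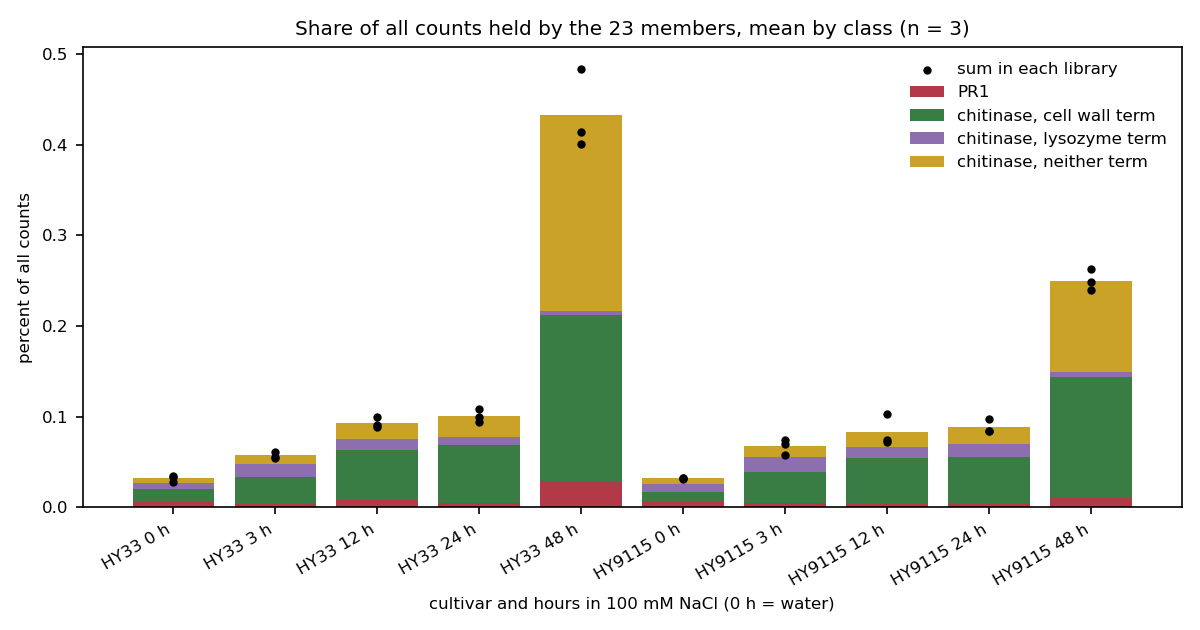
Share of all counts (percent, y axis) held by the 23 members in each group (x axis), stacked by annotation class as means of 3 libraries, with a point for the sum in each library. The bars rise from 0.0319% and 0.0321% at 0 h to 0.433% in HY33 and 0.250% in HY9115 at 48 h, and chitinases with the cell wall term or with neither term fill most of the 48 h bars.

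Both of 2 conditions had to be met before a gene was said to have risen or fallen: a log2 change of 1 or more, and a p under 0.05 from edgeR's quasi-likelihood test after Benjamini-Hochberg adjustment over the 42311 genes of the fit. Changes are log2 values ± SE, and levels are FPKM, which are per length. This SE is the absolute log2 change divided by the square root of the F statistic of that test. It was thus derived from the test and is not a separate estimate of spread. Changes also use a scaling factor per library from edgeR (TMM), while FPKM are scaled to library totals alone. These factors were 0.804 to 0.846 in HY33 at 48 h and 0.887 to 0.910 in HY9115 at 48 h. In the other groups they were 0.964 to 1.11. A change at 48 h can therefore differ from the ratio of the FPKM means. Members outside both counts failed at least 1 of the conditions. The question put to the salt comparisons was which of these genes changed with time in NaCl in each cultivar.

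At 3 h in HY33, 11 of the 23 members (47.8%) had risen and 2 had fallen, while of all genes tested 6.61% were called higher and 7.45% lower. In HY9115 at 3 h, 13 had risen and 2 had fallen, beside 8.27% and 6.43% of all genes. Both counts of risen members at 3 h include Ah03g232300, which passed the FPKM rule through its 3 h libraries alone and so had to be higher there. The members' median change at 3 h was 0.91 in HY33 and 1.11 in HY9115, and that of all genes 0 and 0.0031. At 12 h the counts were 8 higher and 4 lower in HY33 (11% and 12.9% of all genes) and 8 higher and 5 lower in HY9115 (11.4% and 12.4%). At 24 h they were 9 and 6 in HY33 (10.4% and 13.4%) and 9 and 5 in HY9115 (9.2% and 10.5%). The median change of the members was then nearer to that of all genes, at 0.35 and 0.31 at 12 h and 0.19 and 0.34 at 24 h. At 48 h 12 members had risen and 4 had fallen in HY33 (14.3% and 20.1% of all genes), with a median of 1.09, and 9 had risen and 7 had fallen in HY9115 (14.5% and 21.3%), with a median of 0.23. The share of members called lower was 17.4% in HY33 and 30.4% in HY9115 at 48 h, and 26.1% and 21.7% at 24 h. All counts of fallen members from 12 h on include Ah06g027200 and Ah16g152200. All but that of HY33 at 48 h also include Ah20g010500. These genes passed the FPKM rule through 0 h and 3 h libraries alone, so their falls from 12 h were in part set by it.

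Scaling bore on the later counts. The median of all genes moved to -0.38 at 48 h in HY33 when libraries were scaled by total counts and to -0.49 when scaled as TPM (by the sum of counts per gene length), and the members called there were 11 higher and 7 lower, and 10 higher and 7 lower. At 12 h in HY9115 TPM scaling gave 8 higher and 8 lower, with a median of all genes of -0.18.

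**Figure D2:**
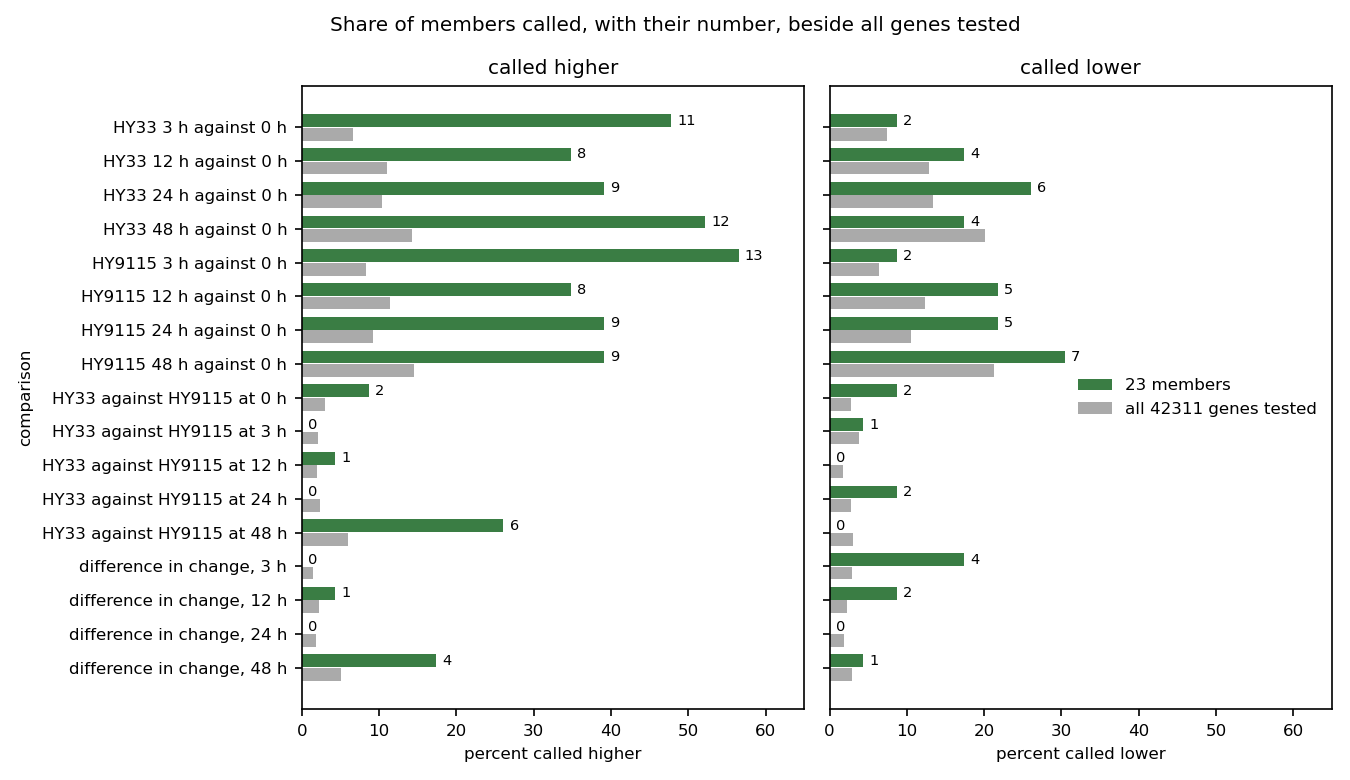
Percent of the 23 members (green) and of all 42311 genes tested (grey) called higher (left) or lower (right) in each of the 17 comparisons, with the number of members beside each green bar. In the 8 salt comparisons between 8 and 13 members were called higher, a larger percentage than of all genes, and between 2 and 7 were called lower.

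Over the 8 salt comparisons 13 members rose at least once and never fell, 8 fell at least once and never rose, and 2 did both. In both cultivars at the same time 11 members rose at 3 h (Ah03g232300 among them), 7 at 12 h, 8 at 24 h and 9 at 48 h, while 0, 3, 5 and 4 fell (from 12 h on Ah06g027200 and Ah16g152200 among them), and at 0 of the 4 times was a member called in opposite directions. How many of all genes had such joint or repeated calls was not counted, so these numbers cannot be set against other genes. The members that rose in all 8 comparisons were 5 chitinases, Ah03g049100, Ah08g147800, Ah13g003400, Ah13g075900 and Ah18g049000. Another 3, Ah11g465900, Ah12g210300 and Ah18g030400, rose in 7. The time of the highest mean FPKM was 3 h for 10 members in HY33 and 13 in HY9115, and 48 h for 5 in each. Ah03g232300 is among those at 3 h in both, and such times were not counted for all genes. These FPKM lack the TMM factors, so the time can depend on scaling. Ah03g049100 in HY33 had its highest mean FPKM at 24 h, while its TMM-scaled change was 4.30 at 24 h and 4.35 at 48 h.

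**Figure D3:**
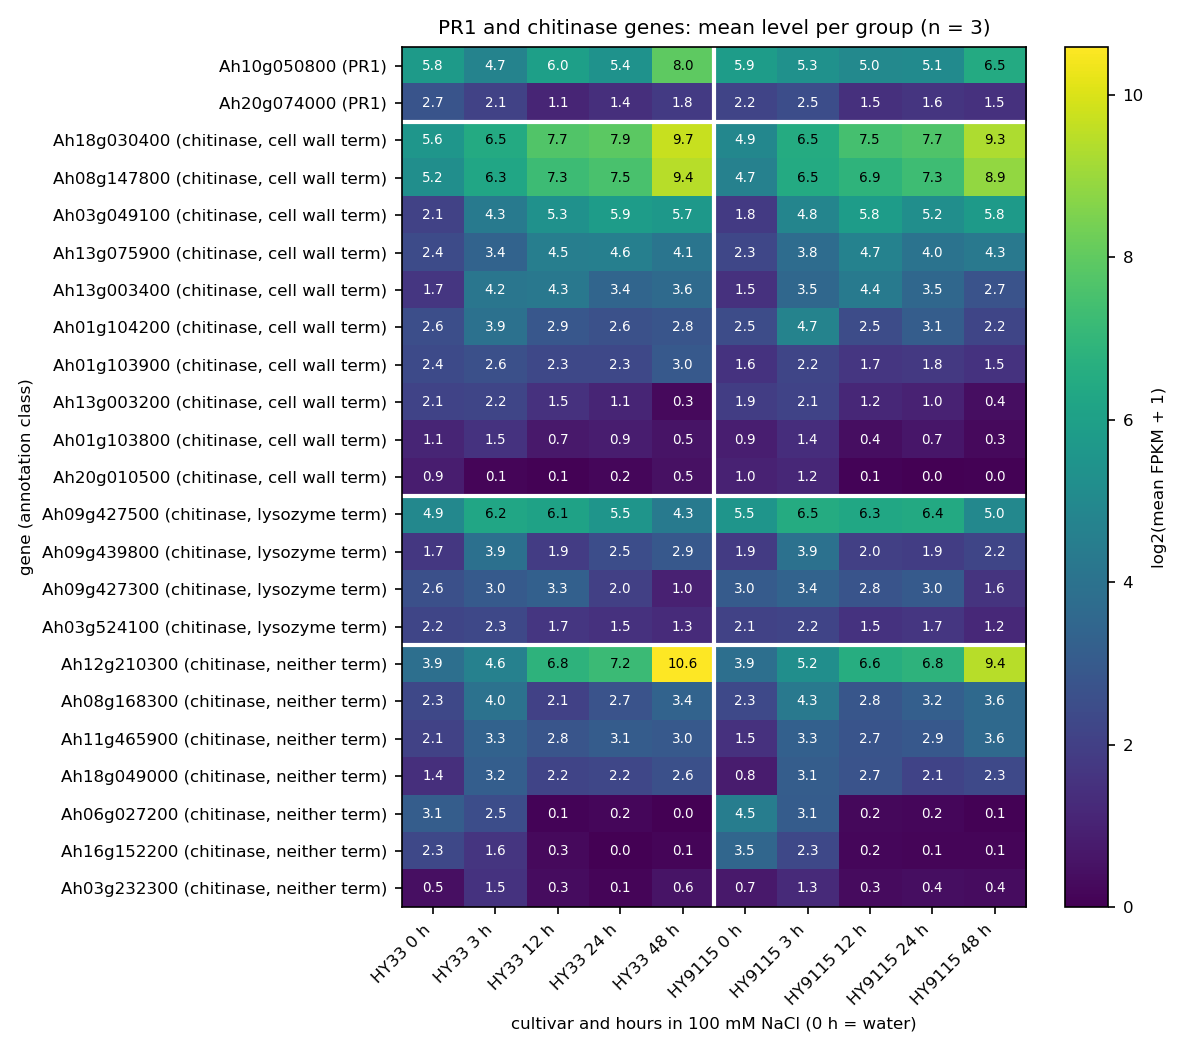
Mean level of each member (rows, grouped by annotation class) in each of the 10 groups (columns), as log2(mean FPKM + 1), n = 3 libraries per cell. Ah12g210300 goes from 3.9 at 0 h to 10.6 in HY33 and 9.4 in HY9115 at 48 h, several rows are brightest at 3 h, and Ah06g027200 and Ah16g152200 are near 0 from 12 h.

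The chitinase with the highest mean FPKM over the 30 libraries was Ah12g210300 (chromosome 12, 56560692 to 56562078, plus strand), which has neither the cell wall nor the lysozyme term. Coordinates are those of the deposited table, whose genome build is not given in the sources used here. Its FPKM in HY33 was 13.82, 15.97 and 10.89 at 0 h, 23.19, 26.32 and 22.37 at 3 h, 91.61, 118.33 and 128.11 at 12 h, 140.39, 168.96 and 135.08 at 24 h, and 1727.64, 1452.61 and 1424.64 at 48 h. In HY9115 it was 13.74, 13.97 and 13.24, then 43.08, 24.9 and 40.79, 74.01, 65.15 and 143.89, 108.01, 129.91 and 98.66, and 640.96, 735.1 and 698.56 at the same times. In each cultivar the libraries of every salt time lay above those of 0 h, and most of the increase in FPKM came between 24 and 48 h. On the log2 scale the change of Ah12g210300 was already 3.57 in HY33 and 3.1 in HY9115 at 24 h. Its place as the highest comes from 48 h, since at each earlier time the group means of Ah18g030400 and Ah08g147800 were above its own in both cultivars. The change from 0 h to 48 h was 7.20 ± 0.26 in HY33 and 5.92 ± 0.25 in HY9115 (edgeR adjusted p = 3.4e-22 and 1.6e-20). At 3 h it rose in HY9115 (1.43 ± 0.22, edgeR adjusted p = 2.5e-06), and the change of 0.79 ± 0.23 in HY33 was under the fold threshold.

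A pair of chitinases with the cell wall, defence and chitin-binding terms, Ah18g030400 (chromosome 18, 2330383 to 2331772, plus strand) and Ah08g147800 (chromosome 8, 25723419 to 25724730, plus strand), had the next highest means over the 30 libraries. Ah18g030400 had an FPKM of 43.16, 53.49 and 42.41 at 0 h in HY33, 184.01, 207.77 and 241.18 at 12 h, and 909.42, 793.67 and 752.35 at 48 h. In HY9115 it had 29.81, 28.55 and 28.04 at 0 h, 147.59, 146.66 and 230.23 at 12 h, and 608.7, 639.98 and 597.65 at 48 h. The 3 times do not overlap in either cultivar. Its change at 48 h was 4.52 ± 0.19 in HY33 and 4.68 ± 0.19 in HY9115 (edgeR adjusted p = 1.8e-20 and 9.9e-21). Ah08g147800 had 39.74, 39.32 and 30.15 at 0 h and 752.48, 679.29 and 656.98 at 48 h in HY33, and 24.04, 23.4 and 24.98 and then 439.34, 485.06 and 464.07 in HY9115. It changed by 4.63 ± 0.15 and 4.52 ± 0.15 at 48 h (edgeR adjusted p = 2.6e-23 and 5.6e-23), with no overlap between the times. Its rise in HY33 at 3 h, 1.04 ± 0.14, was under the fold threshold without replicate 3 of 0 h or replicate 2 of 3 h (0.94 and 0.996). Peanut is an allotetraploid, and whether these 2 genes are copies of each other in its subgenomes was not tested. Where such copies are near-identical the split of counts between them is uncertain, here and for the other members.

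Ah03g049100 (chromosome 3, 4127858 to 4129972, minus strand), with the same terms, rose earlier. In HY33 its FPKM was 4.83, 3.03 and 1.74 at 0 h, 18.22, 20.84 and 17.07 at 3 h, 38.72, 37.36 and 43.2 at 12 h, 53.38, 61.66 and 56.03 at 24 h, and 50.99, 44.74 and 52.67 at 48 h. In HY9115 it was 2.32, 1.93 and 3.3, then 27.73, 26.91 and 26.1, 49.64, 62.96 and 56, 37.83, 35.45 and 35.35, and 55.32, 48.58 and 54.74. No salt library reached down to the 0 h libraries, and from 12 h on all lay between 35.35 and 62.96. The change was 2.54 ± 0.18 at 3 h and 4.35 ± 0.17 at 48 h in HY33, and 3.44 ± 0.18 and 4.65 ± 0.18 in HY9115, with edgeR adjusted p-values of 9.2e-14, 2.0e-21, 3.9e-17 and 7.8e-22. Ah13g075900 (chromosome 13, 6584738 to 6589326, minus strand) had a course of this kind at a lower level, from a mean FPKM of 4.38 ± 0.40 in HY33 and 3.81 ± 0.43 in HY9115 at 0 h to 21.8 ± 2.3 and 24.7 ± 0.29 at 12 h. It rose in all 8 comparisons, by 1.08 to 2.81, and the lowest of these, HY33 at 3 h, was 0.985 without replicate 1 of that group.

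**Figure D4:**
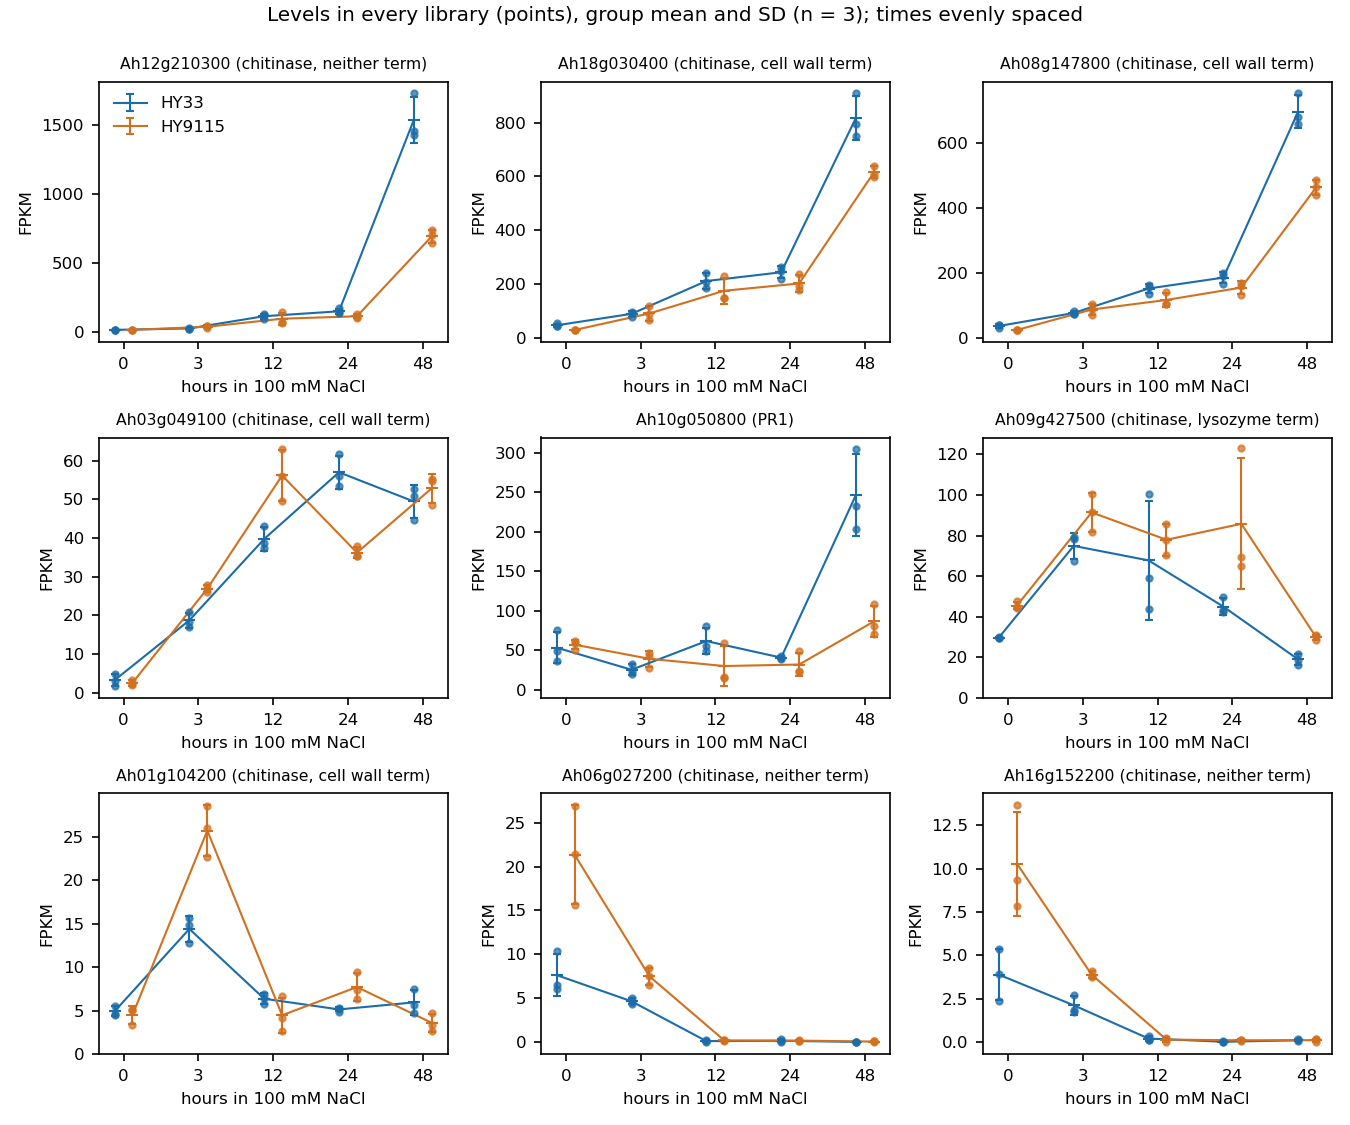
FPKM (y axis, linear, a scale for each gene) of 9 members at 0, 3, 12, 24 and 48 h (x axis, evenly spaced) in HY33 (blue) and HY9115 (orange). Points are libraries, and lines with bars are group means ± SD (n = 3). The upper row climbs to 48 h, the second row reaches its highest level at different times, and the lower row holds a gene highest at 3 h and 2 genes that are near 0 from 12 h.

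Other chitinases were highest at 3 h. Ah09g439800 (chromosome 9, 117888235 to 117889453, minus strand), with the lysozyme term, had an FPKM of 2.42, 2.35 and 2.1 at 0 h, 14.44, 16.32 and 11.48 at 3 h, and 2.19, 2.71 and 3.25 at 12 h in HY33. In HY9115 it had 2.05, 2.28 and 3.53, 14.82, 13.04 and 15.5, and 3.06, 2.87 and 3.01. Each 3 h library was above every library of 0 h and 12 h, and the latter 2 times overlapped. The change at 3 h was 2.59 ± 0.20 in HY33 and 2.49 ± 0.20 in HY9115 (edgeR adjusted p = 1.2e-12 and 1.8e-12). In HY33 it rose again at 24 h (1.16 ± 0.22) and 48 h (1.9 ± 0.22), where the changes in HY9115 were 0.18 and 0.72 and did not pass.

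Ah01g104200 (chromosome 1, 12013285 to 12016249, minus strand), with the cell wall term, had 4.65, 5.57 and 4.51 at 0 h and 15.61, 14.85 and 12.73 at 3 h in HY33, and 3.35, 5.02 and 5.1 and then 26.02, 22.63 and 28.5 in HY9115. At 12 h it was back at 5.74 to 6.96 and 2.62 to 6.63. It rose at 3 h alone, by 1.52 ± 0.21 in HY33 and 2.54 ± 0.21 in HY9115 (edgeR adjusted p = 2.3e-07 and 2.4e-12). The chitinases Ah08g168300 and Ah18g049000, both with the chitin-binding but not the cell wall term, were also highest at 3 h. Ah08g168300 had a mean FPKM of 3.93 ± 0.82 at 0 h and 14.7 ± 1.3 at 3 h in HY33 and 4.03 ± 0.045 and 18.6 ± 1.7 in HY9115, and rose again at 48 h, by 1.64 ± 0.15 and 1.73 ± 0.15. Ah11g465900, with neither term, had changes at 3 h of 1.41 ± 0.12 in HY33 and 2.25 ± 0.13 in HY9115.

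Neighbouring members did not always move together. Among the 38 genes with the orthology numbers, those at most 100 kb apart formed 7 runs. Only the runs on chromosomes 1, 9 and 13 held more than 1 member. On chromosome 13 Ah13g003400 (289035 to 291817, plus strand) rose in all 8 comparisons, while Ah13g003200 (279099 to 282649, plus strand), in the same run and with the same terms, fell. For Ah13g003400 the FPKM was 1.71, 3 and 1.79 at 0 h, 16.58, 18.97 and 15.23 at 3 h, and 13.88, 9.97 and 10.68 at 48 h in HY33. In HY9115 it was 1.8, 1.69 and 2.06, then 11.78, 8.74 and 11.04, and 4.49, 4.83 and 7.48. For Ah13g003200 it was 3.62, 3.17 and 3.5 at 0 h and 0.17, 0.44 and 0.05 at 48 h in HY33, and 2.22, 2.81 and 3.37 and then 0.55, 0.1 and 0.25 in HY9115. All 48 h libraries lay above the 0 h libraries for the first gene and below them for the second. The changes at 48 h were 2.78 ± 0.21 and 1.85 ± 0.24 for Ah13g003400 and -3.54 ± 0.45 and -2.93 ± 0.43 for Ah13g003200 (edgeR adjusted p between 1.8e-13 and 3.6e-07 for the 4 values).

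On chromosome 9 the lysozyme-term genes Ah09g427300 (116517085 to 116529625, minus strand) and Ah09g427500 (116543502 to 116550971, minus strand) lay side by side. The latter, at the higher level, had an FPKM of 30.18, 29.59 and 29.66 at 0 h, 67.45, 79.13 and 78.18 at 3 h, and 16.5, 18.78 and 21.76 at 48 h in HY33, and in HY9115 44.77, 47.6 and 44.13, 91.83, 81.68 and 100.68, and 30.82, 28.57 and 30.53. It rose at 3 h in both cultivars (1.30 ± 0.19 and 1.02 ± 0.18) and at 12 h in HY33 (1.28 ± 0.19). At 12 h the HY33 libraries ranged from 43.7 to 100.25, and without the highest, replicate 1, the change was 0.93 and no longer called. Without replicate 3 of HY9115 at 3 h its 3 h change there was 0.96. Ah09g427300 fell at 48 h, by 2.00 ± 0.27 on the log2 scale in HY33 and by 1.60 ± 0.23 in HY9115 (edgeR adjusted p = 4.9e-08 and 1.5e-07). The run on chromosome 1 (11941316 to 12016249) held 4 genes, of which Ah01g104200 rose at 3 h in both cultivars, Ah01g103900 rose in HY33 at 48 h alone (1.09 ± 0.21, and 0.97 or 0.95 without replicate 1 of 0 h or of 48 h), and Ah01g103800 fell in HY9115 at 48 h alone, by 1.63 ± 0.66 on the log2 scale (edgeR adjusted p = 0.028). This last call rested on FPKM values of at most 0.95, and was lost without replicate 1 or 3 of HY9115 at 0 h (adjusted p 0.059 and 0.069) or replicate 3 at 48 h (0.14). For Ah01g103900 the mean FPKM in HY33 was 4.14 at 0 h and 6.80 at 48 h, a smaller ratio than its TMM-scaled change. The fourth gene, Ah01g103500, did not pass the FPKM rule.

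The largest decreases were in Ah06g027200 (chromosome 6, 2891125 to 2892332, plus strand) and Ah16g152200 (chromosome 16, 21492577 to 21493982, minus strand), chitinases with none of the terms used here. Both passed the FPKM rule through 0 h and 3 h libraries alone, so their falls from 12 h were in part set by it. Ah06g027200 had an FPKM of 6.44, 10.41 and 6.01 at 0 h, 4.53, 4.37 and 4.99 at 3 h, and 0.06, 0.2 and 0 at 12 h in HY33, and 0 in all 3 libraries at 48 h. In HY9115 it had 21.49, 15.62 and 26.92, 8.44, 6.5 and 7.49, 0.18, 0.18 and 0.14, and at 48 h 0.06, 0.05 and 0. Every library from 12 h on was below every earlier one, and at 0 h the HY9115 libraries were above those of HY33. The change at 12 h was -6.22 ± 0.46 in HY33 and -6.82 ± 0.37 in HY9115 (edgeR adjusted p = 4.1e-13 and 1.7e-16). At 48 h there were 0 counts in HY33 against 396 at 0 h, at least 102-fold lower when set against 3 counts over the group, and 2 against 1090 in HY9115, a ratio of 459 (95% interval 127 to 3790, counting error only).

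Ah16g152200 had 2.39, 5.34 and 3.92 at 0 h, 1.76, 1.86 and 2.74 at 3 h, and 0.11, 0.12 and 0.37 at 12 h in HY33, and 9.36, 7.87 and 13.65, 3.8, 3.73 and 4.11, and 0.26, 0.16 and 0 in HY9115. It followed the course of Ah06g027200: both were higher in HY9115 at 0 h and near 0 from 12 h in each cultivar. The change at 12 h was -4.17 ± 0.45 in HY33 and -5.95 ± 0.43 in HY9115 (edgeR adjusted p = 1.0e-09 and 6.6e-14). At 3 h both genes fell in HY9115, by 1.5 ± 0.21 and 1.39 ± 0.26 on the log2 scale, and the changes in HY33, -0.75 and -0.89, did not pass. The low-level chitinase Ah20g010500, with 250 counts over all 30 libraries, fell in 6 of the 8 comparisons. It too passed the FPKM rule through 0 h and 3 h libraries alone. Its falls in HY33 at 3 h and 24 h were lost without replicate 2 of HY33 at 0 h (adjusted p 0.057 and 0.13). That at 24 h was also lost without replicate 1 or replicate 2 of that time (adjusted p 0.076 each). Ah03g524100, with the lysozyme term, was called lower in HY9115 at 48 h alone, by 1.06 ± 0.13 on the log2 scale. Without replicate 2 of that group the fall was 0.93, under the threshold. In HY33 its changes of -0.90 ± 0.12 at 48 h and -0.83 ± 0.12 at 24 h (edgeR adjusted p = 7.1e-08 and 3.8e-07) missed the fold threshold only. The HY33 libraries of these times did not overlap those of 0 h. Ah03g232300, which has a defence term, rose at 3 h in both cultivars (2.34 ± 0.33 and 1.11 ± 0.31), the time through which alone it passed the FPKM rule, and fell at 24 h in both (-1.67 ± 0.51 and -1.08 ± 0.38). Its highest FPKM was 2.48. In HY9115 the 3 h rise was 0.98 without replicate 2 of 0 h, and the 24 h fall was lost without replicate 3 of 0 h or replicate 1 or 2 of 24 h (-0.85, -0.77 and -0.94).

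Of the 2 PR1 genes, the abundant one rose at 48 h in HY33 and the other fell at 12 and 24 h in HY33. Ah10g050800 (chromosome 10, 4296442 to 4297605, minus strand) had an FPKM of 75.26, 48.67 and 36.57 at 0 h in HY33, 19.84, 33.28 and 23.32 at 3 h, 55.43, 49.06 and 80.96 at 12 h, 43.01, 40.07 and 39.48 at 24 h, and 304.5, 232.7 and 203.55 at 48 h. In HY9115 it had 61.66, 59.38 and 50.76, then 43.49, 28.03 and 46.53, 15.08, 15.82 and 59.74, 23.25, 49.41 and 23.75, and 80.65, 108.87 and 70.62. It was already abundant in water, and at 12 h the HY9115 libraries ranged from 15.08 to 59.74. At 48 h all libraries of both cultivars lay above their 0 h libraries. It rose at 48 h in HY33 (2.59 ± 0.34, edgeR adjusted p = 4.6e-08), and the change of 0.86 ± 0.33 in HY9115 was under the fold threshold. At 3 h in HY33 it fell by 1.09 ± 0.35 on the log2 scale (edgeR adjusted p = 0.011), a call lost without replicate 1 of 0 h (change -0.74, adjusted p 0.12) or replicate 1 or 3 of 3 h (adjusted p 0.066 and 0.051).

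Ah20g074000 (chromosome 20, 6839976 to 6840839, minus strand) was at a much lower level. Its FPKM was 7.88, 4.48 and 4.66 at 0 h, 1.42, 0.73 and 1.19 at 12 h, and 1.81, 2.87 and 2.65 at 48 h in HY33, and 3.24, 3.43 and 3.69, 1.44, 1.25 and 2.57, and 2.19, 2 and 1.34 in HY9115. The 0 h libraries were above the 12 h and 48 h libraries in each cultivar. It fell in HY33 at 12 h (-2.23 ± 0.32) and 24 h (-1.60 ± 0.29), with edgeR adjusted p-values of 3.2e-07 and 1.8e-05. In HY9115 its changes at those times, -0.88 and -0.66, did not pass. At 48 h in HY33 the TMM-scaled change was -0.83 ± 0.28 and did not pass, while the mean FPKM was 5.67 at 0 h and 2.44 at 48 h. The other 5 PR1 genes had at most 79 counts each over the 30 libraries.

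The cultivars were compared at each time to find genes whose level differed between the tolerant and the sensitive cultivar. At 0 h 2 members were higher in HY33 and 2 were lower, beside 2.97% and 2.75% of all genes. Those higher were Ah18g049000 (1.19 ± 0.28) and Ah01g103900 (1.09 ± 0.24), and those lower were Ah06g027200 (-1.47 ± 0.21) and Ah16g152200 (-1.39 ± 0.26), with edgeR adjusted p-values of 1.4e-03, 6.5e-04, 2.2e-06 and 1.3e-04. Without replicate 1 of HY33 the value of Ah18g049000 was 1.00 (0.995, under the threshold), and without replicate 2 of either cultivar that of Ah01g103900 was 0.96 or 0.91. At 3 h 1 member was lower, beside 3.78% of all genes lower and 2.06% higher. This was Ah20g010500, through 1 HY9115 library with an FPKM of 3.23 where the other 2 had 0.4 and 0.18, and the call was lost without it (adjusted p 0.27). At 12 h 1 was higher, beside 1.95% higher and 1.8% lower: the PR1 gene Ah10g050800 (1.04 ± 0.35, edgeR adjusted p = 0.042), whose libraries overlapped and whose call was lost without replicate 1 or 3 of HY33 or replicate 1 or 2 of HY9115 (adjusted p 0.06 to 0.22). At 24 h 2 were lower, beside 2.75% lower and 2.41% higher. They were Ah09g427300 (-1.17 ± 0.21), which was under the fold threshold without replicate 1 of HY33 or replicate 3 of HY9115 (-0.97 and -0.89), and Ah03g232300 (-1.39 ± 0.53), whose libraries overlapped and whose call was lost without replicate 2 or 3 of either cultivar (adjusted p 0.052 to 0.32).

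At 48 h 6 of the 23 members (26.1%) were higher in HY33, beside 5.97% of all genes, and 0 were lower, beside 3.06%. At an unadjusted p under 0.05, 12 were higher and 3 lower by edgeR. The share of all genes at that p was not counted, and the percentages above are for the stricter rule. Under total-count scaling 5 were higher and 1 lower, and under TPM scaling 4 and 1, with medians of all genes of -0.12 and -0.23. Ah12g210300 had 1424.64 to 1727.64 FPKM in HY33 and 640.96 to 735.1 in HY9115 (1.28 ± 0.20, edgeR adjusted p = 4.1e-06). Ah10g050800, the PR1 gene, had 203.55 to 304.5 and 70.62 to 108.87 (1.64 ± 0.33, edgeR adjusted p = 1.7e-04). For each of them the groups did not overlap. Ah13g003400 (1.18 ± 0.19), Ah01g103900 (1.96 ± 0.23) and Ah09g439800 (1.00 ± 0.20) were also higher, with no overlap, and Ah09g439800 was under the fold threshold without replicate 1 of either cultivar (0.80 and 0.88). The mean FPKM of Ah09g439800 was 6.59 in HY33 and 3.59 in HY9115, a smaller ratio than its TMM-scaled difference. The sixth, Ah20g010500, rested on 25 counts in HY33 and 2 in HY9115, a ratio of 13.4 (95% interval 3.35 to 117, counting error only), and its call was lost without replicate 1 or 3 of HY33 or replicate 1 or 2 of HY9115 (adjusted p 0.072 to 0.096). Over all 5 times, the median difference between cultivars over the 20 tested genes on each side of a member was between -0.19 and 0.23 (log2).

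Whether the change from 0 h differed between cultivars was tested as the HY33 change minus the HY9115 change. At 3 h 4 members were lower on this measure, that is rose less or fell more in HY33, beside 2.95% of all genes lower and 1.5% higher. At 12 h 1 was higher and 2 were lower, beside 2.29% and 2.22%, and under TPM scaling 2 and 1. At 24 h 0 were called, beside 1.86% higher and 1.88% lower, with 2 higher and 5 lower at an unadjusted p under 0.05 by edgeR, and 1 called by DESeq2. For the unadjusted p the share of all genes was not counted. At 48 h 4 were higher and 1 was lower, beside 5.04% and 2.95%.

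Among these, Ah12g210300 rose more in HY33 at 48 h (difference 1.28 ± 0.31, edgeR adjusted p = 2.1e-03), as did Ah10g050800 (1.73 ± 0.47, edgeR adjusted p = 6.4e-03) and Ah09g439800 (1.18 ± 0.32, and 0.98 or 0.93 without replicate 1 of HY33 at 48 h or replicate 3 of HY9115 at 0 h). Ah11g465900 went the other way. Its FPKM was 3.1, 3.49 and 3.24 at 0 h and 7.08, 6.82 and 6.39 at 48 h in HY33, and 1.91, 1.94 and 1.58 and then 11.75, 10.41 and 11.39 in HY9115, so that the cultivar with the lower level at 0 h had the higher one at 48 h, with no overlap at either time. The difference in change was -1.46 ± 0.18 (edgeR adjusted p = 1.5e-07). Ah18g049000 rose more in HY9115 at 12 h (-1.87 ± 0.33) and at 3 h (-1.19 ± 0.32, and -0.99 without replicate 1 of HY33 at 0 h). It had 2.1, 1.66 and 1.25 FPKM at 0 h and 3.76, 3.29 and 3.37 at 12 h in HY33, and 0.71, 0.64 and 0.84 and then 5.94, 6.06 and 4.63 in HY9115. The lower cultivar at 0 h was the higher one at 12 h, with no overlap at either time. This order did not last, unlike that of Ah11g465900 at 48 h. The mean FPKM of Ah18g049000 was 3.73 in HY33 and 3.38 in HY9115 at 24 h, and 5.08 and 4.10 at 48 h. Ah01g104200 rose more in HY9115 at 3 h (-1.02 ± 0.30, edgeR adjusted p = 0.017), a call lost when any 1 of 5 libraries was left out (-0.83 to -0.99).

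**Figure D5:**
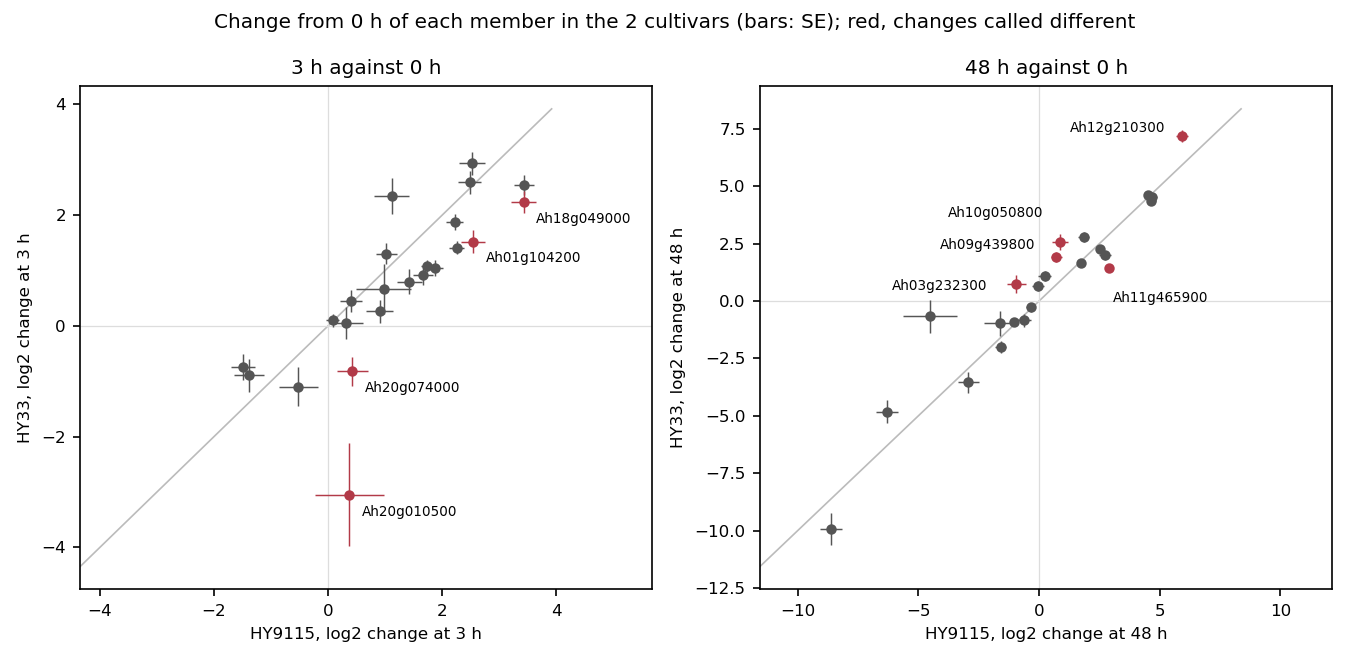
Log2 change from 0 h of each of the 23 members in HY9115 (x axis) and HY33 (y axis) at 3 h (left) and 48 h (right), with bars of 1 SE and a line of equal change. Red points are the 4 members at 3 h and 5 at 48 h whose changes were called different. At 48 h Ah06g027200, at the lower left, had 0 counts in HY33, and its fitted change there is no bound.

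The name of the gene group includes glucanases, for which no gene carried the orthology numbers. The Gene Ontology term for glucan endo-1,3-beta-D-glucosidase activity was on 154 genes, 91 of them tested, which are not members and were listed after the annotation had been seen. Of these 91, 10 rose and 5 fell in HY33 at 3 h and 21 rose and 34 fell at 48 h, and in HY9115 the counts were 15 and 5, and 19 and 36. Of all genes tested, 6.61% rose and 7.45% fell in HY33 at 3 h and 14.3% and 20.1% at 48 h. In HY9115 the percentages were 8.27% and 6.43%, and 14.5% and 21.3%. The median changes of the 91 were -0.02 and -0.25 in HY33 and -0.01 and -0.44 in HY9115. Between cultivars at 48 h 13 of the 91 were higher in HY33 and 1 was lower, beside 5.97% and 3.06% of all genes. At 3 h 2 were higher and 7 lower, beside 2.06% and 3.78%. At 0, 12 and 24 h 0, 3 and 4 were higher and 3, 0 and 0 lower. The percentages of all genes at these 3 times are those given for the members above.

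Other defence genes were taken from lists by orthology number or term. Of 30 receptor kinases for microbial patterns and chitin, 3 rose and 9 fell in HY33 at 48 h and 6 rose and 11 fell in HY9115, with medians of -0.06 and 0.04. Of all genes, 14.3% rose and 20.1% fell in HY33 at 48 h, and 14.5% and 21.3% in HY9115. Among the 30 were 15 genes of CERK1, the chitin receptor kinase, with medians of 0.15 and 0.03 at 3 h. Of 27 WRKY factors, transcription factors of defence and stress, 10 rose and 4 fell at 12 h in HY33 and 11 rose and 3 fell in HY9115. At 12 h 11% of all genes rose and 12.9% fell in HY33, and 11.4% and 12.4% in HY9115. WRKY33, which acts in Arabidopsis in responses to fungi, had 9 genes, of which 6 rose at 48 h in each cultivar (medians 1.02 and 1.68).

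Of 31 genes of salicylic acid signalling (the receptor NPR1 and TGA factors), 2 rose and 6 fell in HY33 at 48 h and 1 rose and 8 fell in HY9115, with medians of -0.41 and -0.26. The 8 NPR1 genes among them had medians of -0.45 in HY33 and -0.76 in HY9115 at 48 h, where 1 was called, lower, in HY9115. Of 14 genes of the MAP kinase cascade 2 or 3 rose in each salt comparison and at most 1 fell. Of 27 genes of the resistance protein module 4 rose and 3 fell in HY33 at 48 h and 3 and 2 in HY9115. Of 20 genes of serine-type endopeptidase inhibitors, proteins that block digestive proteases of insects and microbes, 3 rose and 1 fell at 3 h in HY33 and 7 rose in HY9115. At 48 h 3 rose and 7 fell in HY33 and 6 and 7 in HY9115. The percentages of all genes called higher and lower in these comparisons are those given for the members above.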

How the data were processed

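Poly(A) RNA of whole seedlings was sequenced as paired reads, per the labels' protocols. The submitters' processing notes name HISAT2 2.2.1, HTSeq 0.6.1, cutadapt 1.9.1 and DESeq2. The deposited table holds a whole-number read count per gene and library, which the authors had not normalised as far as the values show, and FPKM values by the authors, which equalled the deposited counts per length and library total in 100% of values (tolerance 0.005). Strand use in counting and the genome build are not stated in these sources, and reads of overlapping or antisense genes can therefore not be told apart.

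Counts of genes that reached an FPKM of 1 in 3 or more libraries entered edgeR 4.0.16 (R 4.3.3; TMM factors 0.804 to 1.11, 1 fit of 30 libraries with a coefficient per group, glmQLFit and glmQLFTest) in 17 comparisons. P-values were adjusted by Benjamini-Hochberg over the 42311 genes. Libraries held 13072324 to 18788677 counts, and within groups correlations across genes were 0.984 to 0.992. No pair of replicates had counts alike within sampling error (chi-square divided by its degrees of freedom at least 2.05). Reads carry no molecular identifiers, so intervals (exact, 95%) and floors cover counting error only. Scripts were tested on simulated counts.

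Alternatives were other scalings, filters and tools (DESeq2 1.42.0, limma 3.58.1), the replicate number as a block, and leaving out each library. The members and lists were chosen with earlier results of these data known. The annotation classes, the glucanase and chitinase term lists and the lists of single orthology numbers were added after the annotation had been seen. The rule for genes to name took the 3 with the highest mean FPKM per family and up to 2 called members per direction and comparison with the largest change and a group mean FPKM of at least 5, and gave 14 genes. Other members were named after their values were seen.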

Additional observations from a re-analysis of the deposited data

Results flagged for a closer look

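In 12 cases a member's change from 0 h differed between the cultivars by the test of the difference itself (edgeR's quasi-likelihood test of the interaction, HY33 change minus HY9115 change, log2 ± SE, adjusted over all genes). At 3 h these were Ah01g104200 (-1.02 ± 0.30, adjusted p = 0.017), Ah18g049000 (-1.19 ± 0.32, adjusted p = 9.6e-03), the low-level chitinase Ah20g010500 (-3.42 ± 1.13, adjusted p = 0.038) and the PR1 gene Ah20g074000 (-1.25 ± 0.38, adjusted p = 0.024). At 12 h they were Ah09g427300 (1.10 ± 0.28, adjusted p = 6.2e-03), Ah18g049000 (-1.87 ± 0.33, adjusted p = 1.2e-04) and Ah20g074000 (-1.35 ± 0.46, adjusted p = 0.040). At 48 h they were Ah03g232300 (1.70 ± 0.55, adjusted p = 0.022), Ah09g439800 (1.18 ± 0.32, adjusted p = 5.8e-03), Ah10g050800 (1.73 ± 0.47, adjusted p = 6.4e-03), Ah11g465900 (-1.46 ± 0.18, adjusted p = 1.5e-07) and Ah12g210300 (1.28 ± 0.31, adjusted p = 2.1e-03).

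Ah11g465900 and Ah12g210300 at 48 h, Ah10g050800 at 48 h and Ah18g049000 at 12 h kept their calls without any single library. The other 8 did not. Ah20g010500 at 3 h was -1.27 (adjusted p 0.48) without replicate 3 of HY9115 at 3 h, the library with an FPKM of 3.23, and was also lost without any of 6 other libraries. Ah20g074000 was lost at 3 h without any of 5 libraries and at 12 h without any of 7, among them replicate 3 of HY9115 at 12 h (-0.97, adjusted p 0.20). Ah01g104200 at 3 h was between -0.83 and -0.99 without any of 5 libraries. Ah18g049000 at 3 h was -0.99 (adjusted p 0.059) without replicate 1 of HY33 at 0 h. Ah09g427300 at 12 h was 0.93 without that library and 0.99 without replicate 1 of HY9115 at 12 h. Ah03g232300 at 48 h had adjusted p-values of 0.057 to 0.065 without any of 4 libraries, and Ah09g439800 at 48 h was 0.93 or 0.98 without replicate 3 of HY9115 at 0 h or replicate 1 of HY33 at 48 h.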

How the results depend on the processing

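The counts of members called in the 8 salt comparisons stayed within 1.5 times under all alternatives, and 0 values changed sign. Of the 140 called pairs of member and comparison, 139 kept the call with RLE size factors, 137 with total counts, 132 with TPM scaling, 139 with no filter, 137 with DESeq2, 131 with limma on log2(FPKM + 0.1) and 102 with limma on log2(FPKM + 1), a scale that shrinks changes of low genes; with a filter at FPKM 5 in 3 libraries 110 of the 113 that could still be tested did. Of 4 called at 0 h between cultivars, limma (+ 1) left 2. Of 1 at 3 h, the stricter filter and limma (+ 1) left 0. Of 1 at 12 h, DESeq2 and the replicate block left 0. Of 2 at 24 h, 1 was left by no filter, the stricter filter, DESeq2 and either limma. Of 6 at 48 h, limma (+ 1) left 3. Of 4 differences in change at 3 h, 1 was left by the stricter filter, 1 by limma (+ 0.1) and 0 by limma (+ 1). At 24 h, where 0 were called, total counts, TPM scaling, no filter, the stricter filter and DESeq2 each called 1 and limma (+ 1) called 2. The causes were not tested. Without 1 library the members called in HY33 at 3, 12, 24 and 48 h were 11 to 14, 11 to 14, 14 to 15 and 15 to 17, in HY9115 14 to 16, 11 to 15, 13 to 15 and 15 to 17, between cultivars at 0 to 48 h 3 to 4, 0 to 2, 0 to 2, 0 to 3 and 4 to 6, and for the difference in change at 3 to 48 h 1 to 5, 1 to 5, 0 to 1 and 3 to 7. Of 114 salt calls 14 were lost without some library, of 14 between cultivars 8 and of 12 differences in change 8. Deviations of same-numbered replicates correlated weakly (-0.19 to 0.16, in 0 of 13 comparisons all over 0.1). In 39 cases a library was set against the 3 of the other group, and in 20 it correlated best with its own number. This check therefore does not settle whether the numbers pair the samples. With the replicate block 138 of 140 calls were kept. Low counts limit Ah20g010500, Ah03g232300 and Ah01g103800.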

Other observations

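The chitinase activity term was also on 22 genes without the orthology numbers, of which 15 were tested. These were listed after the annotation had been seen. In HY33, 8 of the 15 rose and 1 fell at 3 h, where 6.61% of all genes tested were called higher and 7.45% lower, and 10 rose and 1 fell at 48 h (14.3% and 20.1% of all genes). In HY9115, 10 rose at 3 h (8.27% of all genes), and 11 rose and 3 fell at 48 h (14.5% and 21.3%). Their median changes were 1.49 and 1.56 in HY33 and 1.73 and 1.75 in HY9115, above the medians of the 23 members in the same comparisons. At 3 h 0 of the 15 were higher and 5 were lower in HY33 than in HY9115, beside 2.06% and 3.78% of all genes. At 0, 12, 24 and 48 h 1 was higher each time, and 1, 2, 2 and 1 were lower. For the difference in change from 0 h, 0 were called at 3 h, 1 higher and 1 lower at 12 h, and 1 higher at 24 h and at 48 h. The percentages of all genes in these comparisons are those given for the members above.

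The chitinases Ah05g038400 on chromosome 5 and Ah15g038400 on chromosome 15 are listed at the same start and end, 4036275 and 4038495, and both had 0 counts in all 30 libraries.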
